A study of Bos taurus with 8 samples.

Results

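Cytosolic ribosomal proteins are the protein parts of the ribosomes that translate nuclear messages. In granulosa cells, the hormone-responsive cells that line the ovarian follicle, their messages were measured in cultures with and without follicle-stimulating hormone (FSH). The members were taken by name: every array probe whose platform symbol is RPL or RPS with a number and an optional copy letter, or RPSA, RPLP0, RPLP1 or RPLP2. The kinases named RPS6K were left out. This gave 121 probes for 68 genes, out of 43794 gene probes of which 21790 have a symbol. The large subunit has 43 of the genes with 83 probes, and the small subunit has 25 with 38 probes. The rule uses names alone, and it was set with earlier results of these data known.

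A ribosome joins a small subunit, which reads the message, to a large subunit, which forms the peptide bond. Most mammalian ribosomal protein messages begin with a run of pyrimidines, the 5′ terminal oligopyrimidine (TOP) motif, through which mTOR signalling and the binding protein LARP1 set how strongly they are translated. An array of total RNA measures how much message is present and not how much of it is translated. FSH acts on granulosa cells through its receptor, cyclic AMP and protein kinases, and in rat granulosa cells it is known to raise the phosphorylation of the small subunit protein RPS6.

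FSH cultures were kept for 48 h, the final 4 h of them in 1 ng/ml FSH, and control cultures were kept for 48 h without it. Both were primary cells of cattle, pooled from dissected follicles 2 to 6 mm wide, with ovaries from a slaughterhouse. Each of 8 two-colour arrays compared amplified RNA of an FSH culture with that of a control culture, and the arrays form 4 numbered replicates of a dye-swap pair each. The red dye Cy5 marked FSH on one array of a pair and the green dye Cy3 marked it on the other. The culture protocol speaks of 8 biological replicates, and nothing in the labels ties the FSH and control cultures of a number to the same animals. The p-values therefore cover only the variation among these samples, part of which may be technical.

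Of the gene probes, 71.4% to 84.2% per array and channel were above background, set as the 95th percentile over negative control spots. Of the defining markers, 13 of 14 for granulosa cells were above background in all 16 channels, and FOXL2 was not. All 6 fibroblast markers were also above background in all 16 channels, with a summed level (log2 intensity) of 14.18 to 15.47 in FSH samples and 13.35 to 15.05 in control samples. Theca markers reached this in 4 of 7, without CYP17A1, LHCGR and COLEC11, immune markers in 3 of 8, endothelial in 4 of 7, smooth muscle in 2 of 5, erythrocyte in 2 of the 5 on the array and oocyte in 3 of 8. The part of these cells in the values below was not tested. In these bulk samples, fewer cells of a type and less RNA per cell cannot be told apart. Replicate 3 stood apart for NR4A1, an early response gene of FSH: its level was 14.47, 15.26, 15.02 and 15.12 in FSH replicates 1 to 4, against 11.25, 10.89, 14.89 and 11.02 in control replicates 1 to 4. The control sample of replicate 3 was thus in the range of the FSH samples, far above the other controls. Values without this replicate are given beside the named members that it moves most. As these members are shown because of that shift, their p-values without replicate 3 are descriptions only.

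Ribosomal protein messages gave some of the brightest spots on the arrays. Of the 121 member probes, 120 were above background in all 16 channels, against 70.7% of the 36531 tested probes. The exception was RPL3L, in the mouse a paralogue of striated muscle, which passed in 4 FSH and 2 control channels. A limit set after seeing the data, a mean intensity above 80% of the brightest gene probe of that channel in at least 8 of 16 channels, marks probes at the top of the scale. It held for 44 member probes (36.4%) of 31 genes, against 0.567% of tested probes. Members made up 44 of the 142 named probes there, with 28 of 83 large subunit probes and 16 of 38 small subunit probes. Just inside the limit lay a probe of RPLP0 and one of RPL18 with 8 channels each, and just outside lay 2 further RPLP0 probes with 6 and 7 channels.

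By median, probes at the top of the scale differed little between samples, which follows in part from the limit that defines them. The SD of their FSH over control log2 ratio over the 4 replicates had a median of 0.0784 for the 44 members, against 0.175 for the 77 members below the top. The 163 other probes at the top had 0.0811, and their mean log2 ratios ran up to 3.13. The range of level over the 4 control samples had a median of 0.108 log2 units for the top members and 0.481 for those below. In 10 genes, probes lay on both sides of the limit, and 47 genes had at least 1 probe below it. The brightest gene probe of an array reached a mean of 41628 to 44103 in Cy5 and 37524 to 39482 in Cy3, and 7 member probes had a saturated median pixel on at least 1 array. How far the scanner's upper limit holds these ratios near 0 was not tested.

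**Figure D1:**
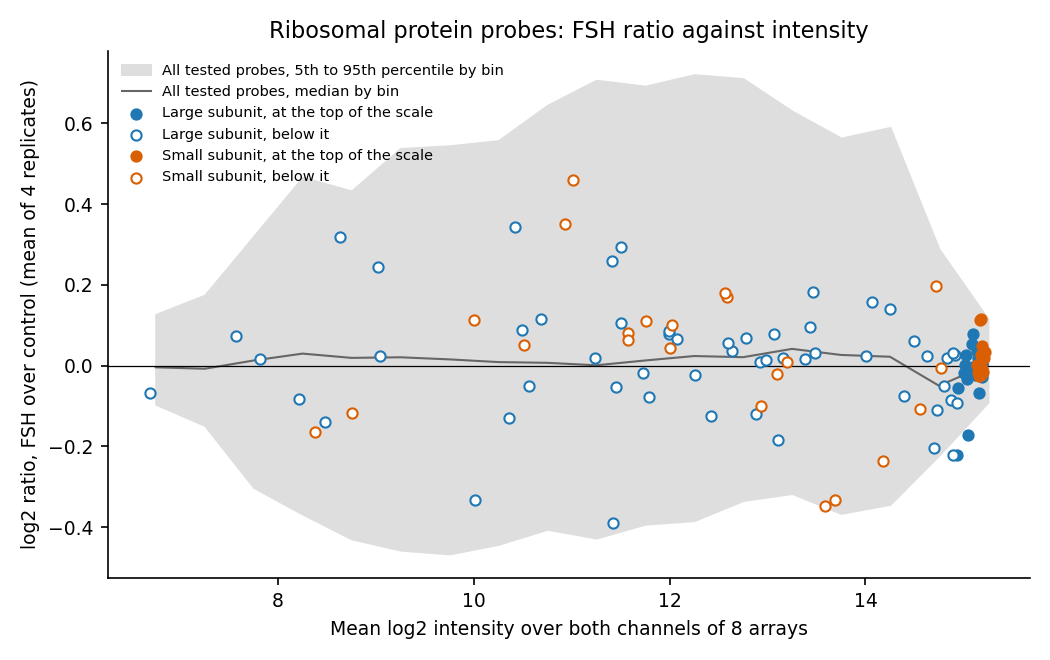
Each point is a member probe, with its mean log2 intensity over both channels of 8 arrays on the x axis and its mean log2 ratio of FSH over control on the y axis. Filled points are the 44 probes at the top of the scale, open points the 77 below it, and the grey band spans the 5th to 95th percentile of all tested probes by intensity. The members lie between -0.39 and 0.46.

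No ribosomal protein message passed the test for FSH. With limma over all tested probes and Benjamini-Hochberg adjustment, 0 of 121 member probes and 0 of 36531 probes (0%) were called at an adjusted p under 0.05. At an unadjusted p under 0.05, 6 member probes were higher with FSH (4.96%, against 6.94% of all probes) and 5 were lower (4.13%, against 5.26%). A log2 ratio over 0.2 in size was found for 7 higher and 8 lower member probes (5.79% and 6.61%, against 10.1% and 8.38%), and none reached 1 in size (0.435% of all probes were higher and 0.0849% lower by that much). The same sign in all 4 replicates was seen in 13 probes higher and 8 lower (10.7% and 6.61%, against 10.7% and 9.63%). These shares are near or under those of all probes. The levels of the 4 FSH and 4 control samples did not overlap, with FSH higher, for 1 member probe, against 1.68% of all probes. This was RPL37, at the top of the scale, with a lowest FSH level of 15.152 and a highest control level of 15.151. Its log2 ratio was 0.035, above 0 on 4 of 8 arrays. Among the 44 members at the top of the scale, 0 had an unadjusted p under 0.05, against 6.28% of the probes there. Among the 77 below it, 11 did, against 12.2%.

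Taken over genes by their brightest probe, the median log2 ratio of FSH over control was 0.00892 for the 68 members and -0.00463 for the 13592 tested genes. It was -0.01, 0.02, -0.05 and 0.06 in replicates 1 to 4, so the sign differed between replicates. Loess within arrays holds the ratios of all gene probes near 0, bright ones included. With arrays centred on their median instead, the members' median was 0.0683. With loess, ratios were above 0 for 39 members and below 0 for 29, against 48.1% and 51.9% of all genes. They ran from -0.39 for RPL35 to 0.46 for RPS9. When the 8 arrays were fitted singly, with replicate as a block and a term for the dye, 0 member probes were called, against 1277 of all probes (3.5%). The same replicate block without replicate 3 called 4 members (3.31%, against 7.19% of all probes). RPL29, RPS10 and RPS19 were called higher (3.83% of all probes were) and RPL35 lower (3.36% were).

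**Figure D2:**
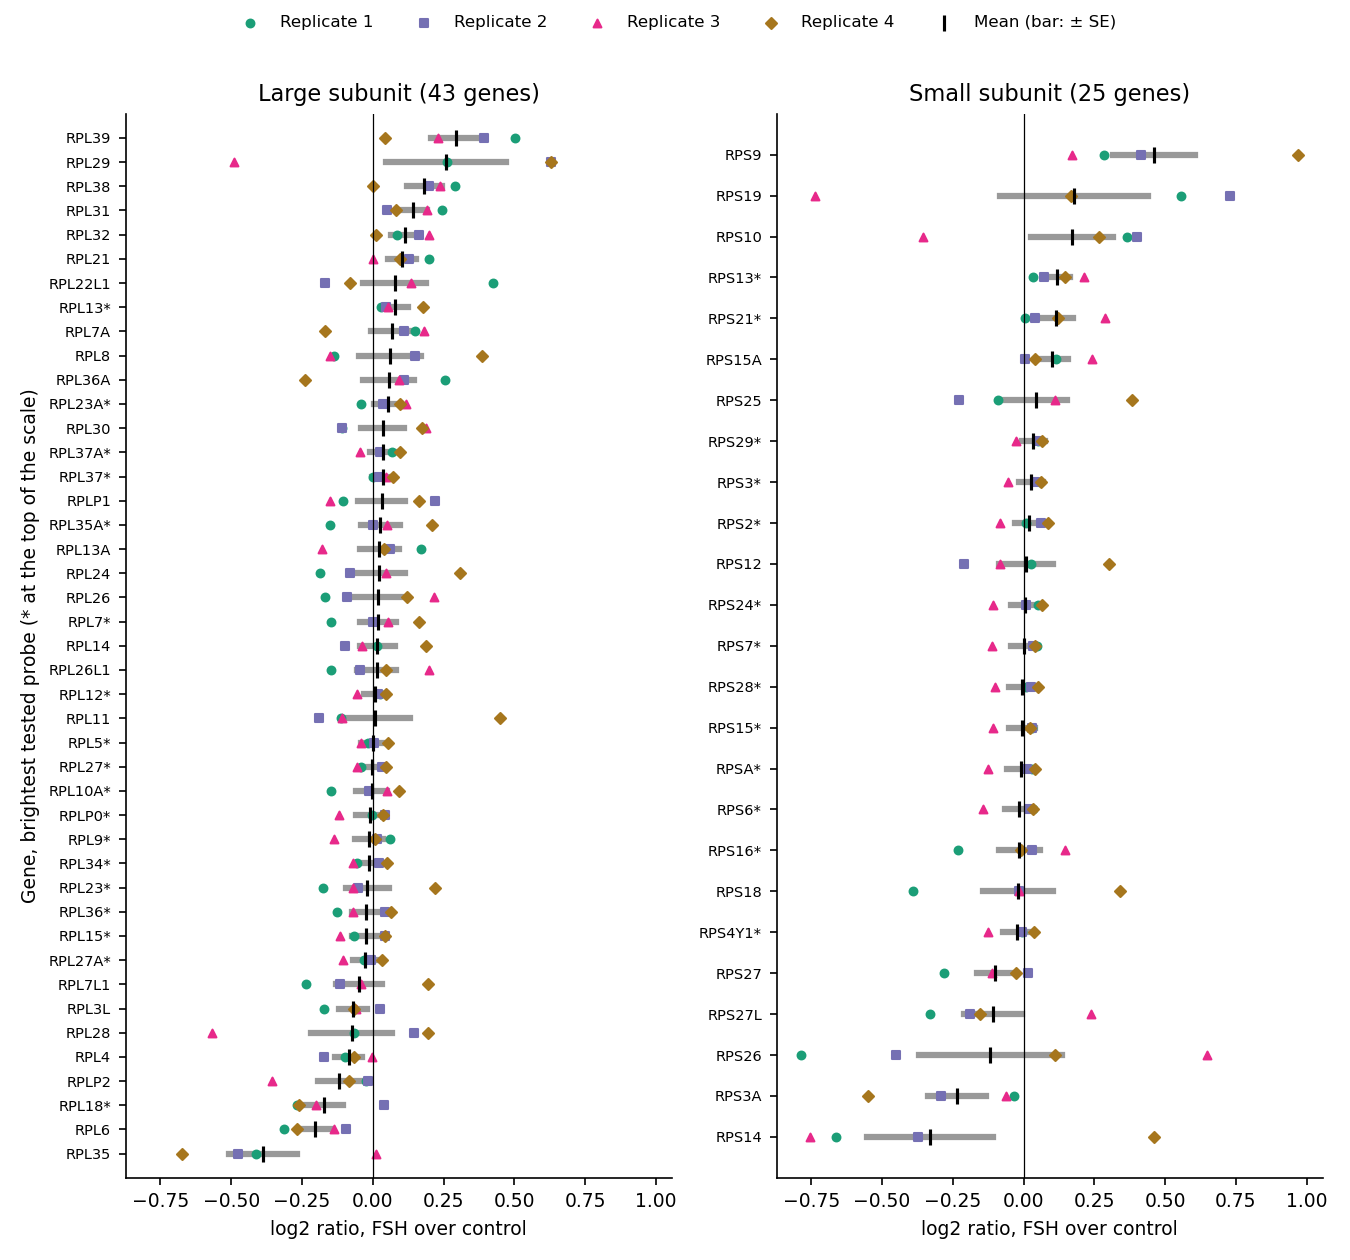
The log2 ratio of FSH over control (x axis) is shown for each of the 68 genes in replicates 1 to 4, large subunit on the left and small subunit on the right, with the mean and its SE. Genes with a star have their brightest probe at the top of the scale and mostly lie near 0, with RPL18 the lowest of them, while RPS19, RPS10, RPL29 and RPL28 show replicate 3 apart from the other three.

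In the small subunit, RPS9, a protein near the entry of the message channel, had the highest ratio of all members. Its brighter probe had levels of 10.86, 11.09, 11.60 and 11.41 in FSH replicates 1 to 4, against 10.58, 10.67, 11.43 and 10.45 in control replicates 1 to 4. FSH was higher in each replicate, but the groups overlapped because the control of replicate 3 was as high as the treated samples. The log2 ratio was 0.46 ± 0.14 (SE, n = 4 replicates), which is 1.38-fold, with an adjusted p of 0.34 in limma. The second RPS9 probe had 10.80, 10.69, 11.70 and 11.21 in FSH samples, against 10.56, 10.47, 11.35 and 10.61 in control samples. Its log2 ratio of 0.35 ± 0.08 was above 0 on all 8 arrays, with an adjusted p of 0.272. The probes differed by dye: the brighter one gave 0.06 on the arrays with FSH in Cy5 and 0.86 on those with FSH in Cy3, whereas the second gave 0.35 in both orientations.

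RPS19 and RPS10, small subunit proteins whose mutation in humans is known from Diamond-Blackfan anaemia, shared a profile over the replicates. RPS19 had levels of 12.66, 13.08, 12.22 and 12.62 in FSH samples, against 12.11, 12.35, 12.96 and 12.45 in control samples. RPS10 had 12.55, 12.78, 12.47 and 12.88 in FSH samples, against 12.19, 12.38, 12.82 and 12.61 in control samples. For both genes FSH was higher in replicates 1, 2 and 4 and lower in replicate 3. There the control was the highest of its group and the FSH sample the lowest of its group. The log2 ratios were 0.18 ± 0.26 for RPS19 and 0.17 ± 0.14 for RPS10, neither past the test. Without replicate 3 they were 0.48 and 0.34, with adjusted p of 0.221 and 0.132 in limma on the pair means. The fit with the replicate block, which assumes a common correlation for all probes, gave adjusted p of 0.0364 and 0.0236 for the same values.

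RPS14, a protein of the small subunit platform known in humans for its loss in the 5q- syndrome, varied most between control samples. Its levels were 13.33, 13.95, 13.30 and 13.46 in FSH samples, against 13.99, 14.32, 14.05 and 13.00 in control samples. The control of replicate 4 lay about 1 log2 unit below the other controls, and in that replicate alone FSH was higher. The log2 ratios were -0.66, -0.37, -0.76 and 0.46, with a mean of -0.33 ± 0.22 and an adjusted p of 0.627 in limma. A second RPS14 probe gave -0.72, -0.39, -0.77 and 0.49, so replicate 4 differed on both probes, and without replicate 4 the first probe's mean was -0.60. Over the 8 sample levels the genes whose pattern was most like that of RPS14 were P2RX6, TTC1, BOSTAUV1R425, TMEM50A and BET1L. Their Pearson's r were 0.980, 0.974, 0.965, 0.960 and 0.959, picked as the highest over all tested genes. P2RX6 and BOSTAUV1R425 were dim and varied little, with levels of 7.13 to 7.33 and 6.93 to 7.05. The 8 levels of a gene come from 4 shared array pairs, so the r are given as a description.

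RPS3A had log2 ratios of -0.03, -0.29, -0.06 and -0.55, with a mean of -0.23 ± 0.10. FSH was lower in each replicate, by amounts that differed widely. RPS6, the target of the S6 kinases, had both probes at the top of the scale and gave -0.02 ± 0.05 on each. RPSA, also known as the laminin receptor, gave -0.01 ± 0.05 on its brightest probe, and its 3 probes ran from -0.01 to 0.05. RPS13 and RPS21 gave 0.12 ± 0.05 and 0.11 ± 0.06 at the top of the scale, and 0.08 and 0.06 without replicate 3. These probes gave 0.35 and 0.34 with FSH in Cy5, but -0.12 and -0.12 with FSH in Cy3. A dimmer RPS21 probe gave 0.20 ± 0.10, with 0.17 with FSH in Cy5 and 0.22 with FSH in Cy3. RPS26 had only dim probes, whose replicates scattered without a common order: -0.79, -0.45, 0.65 and 0.11 on one, and 0.35, -0.43, -0.07 and -0.50 on the other. The first averaged -0.12 ± 0.25, and -0.37 without replicate 3.

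In the large subunit, RPL39, a short protein that lines the peptide exit tunnel, was higher with FSH in each replicate. Its levels were 11.24, 11.78, 12.01 and 11.55 in FSH samples, against 10.74, 11.38, 11.78 and 11.51 in control samples. The groups overlapped, since the replicates themselves spanned 1.04 log2 units over the controls, more than the ratio of any one of them. The log2 ratio was 0.29 ± 0.09 (SE, n = 4), with an adjusted p of 0.326 in limma, and it was above 0 on all 8 arrays. RPL38, which in the mouse is required for the translation of certain Hox messages, gave 0.18 ± 0.06, but 0.42 with FSH in Cy3 and -0.06 with FSH in Cy5. RPL31, at the rim of the exit tunnel, gave 0.14 ± 0.05 and was above 0 on all 8 arrays.

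RPL29, a heparin-binding protein, followed RPS19 and RPS10. Its levels were 11.23, 11.94, 11.26 and 11.73 in FSH samples, against 10.97, 11.31, 11.75 and 11.11 in control samples. The control of replicate 3 was again the highest of its group, and only in that replicate was FSH lower. The log2 ratio was 0.26 ± 0.21, with an adjusted p of 0.704 in limma. Without replicate 3 it was 0.51, with an adjusted p of 0.151 on the pair means and of 0.0185 in the fit with the replicate block. RPL28 had the same low replicate 3 on 3 probes, at -0.57, -0.76 and -0.74, and means of -0.07, -0.08 and -0.05. Without replicate 3 the direction turned on each, to 0.09, 0.15 and 0.17.

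RPL35, another protein at the tunnel exit, had the lowest ratio of all members. Its levels were 11.16, 11.36, 11.31 and 11.11 in FSH samples, against 11.57, 11.84, 11.30 and 11.78 in control samples. FSH was lower in replicates 1, 2 and 4 and level with control in replicate 3, and the groups overlapped by that control alone. The log2 ratio was -0.39 ± 0.12, or 0.764 times the control, with an adjusted p of 0.334 in limma. Without replicate 3 it was -0.52, with an adjusted p of 0.117 on the pair means and of 0.0148 in the fit with the replicate block. The ratio differed between dye orientations: it was -0.82 on the 4 arrays with FSH in Cy5 and 0.04 on the 4 with FSH in Cy3, and its only probe was dimmer in Cy5 than in Cy3 by a log2 ratio of -0.43.

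RPL6 was lower with FSH on all 8 arrays. Its levels were 14.51, 14.76, 14.51 and 14.57 in FSH samples, against 14.83, 14.85, 14.65 and 14.84 in control samples. The groups overlapped by the second FSH sample and the third control. The log2 ratio was -0.20 ± 0.06, with an adjusted p of 0.304 in limma. RPL18 gave -0.17, -0.22, -0.22 and -0.18 on 4 probes, 2 of them at the top of the scale. All 4 RPL18 probes were below 0 in replicates 1, 3 and 4 and above 0 in replicate 2. RPL4, which reaches into the exit tunnel, gave -0.08 ± 0.05.

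RPL5 and RPL11, which with 5S RNA bind MDM2 and thereby raise p53 when ribosome assembly fails, had ratios near 0. RPL5, at the top of the scale, gave 0.00 ± 0.04. RPL11 gave -0.11, -0.19, -0.11 and 0.45 on its brighter probe, with a mean of 0.01 ± 0.12, and 0.08 ± 0.07 on the other. As for RPS14, replicate 4 differed from the rest, and its control was the lowest of the group at 12.55.

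The stalk proteins RPLP0, RPLP1 and RPLP2, which recruit translation factors to the large subunit, had no common direction. RPLP0, often used as a reference gene, had 12 probes with log2 ratios between -0.09 and 0.16, 5 above 0 and 7 below. RPLP1 gave 0.03 ± 0.08, with a different sign from one replicate to the next. RPLP2 gave -0.12 ± 0.07, with -0.36 in replicate 3 and values from -0.09 to -0.02 in the others, and -0.04 without replicate 3.

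The 6 paralogues among the members, genes named as copies of a main gene, had a median of -0.04. RPS27L, known in humans as a p53 target, gave -0.11 ± 0.10, and -0.22 without replicate 3, beside -0.10 ± 0.06 for RPS27. RPL22L1 gave 0.08 ± 0.11, and -0.04 without replicate 1. RPL26L1 gave 0.01 ± 0.07 on its brighter probe and -0.13 ± 0.06 on the other, which was below 0 in each replicate, beside 0.02 ± 0.08 for RPL26. Without replicate 3 the brighter RPL26L1 probe and RPL26 both gave -0.05. RPL7L1 had 6 probes from -0.33 to 0.02, of which the lowest had an adjusted p of 0.378, beside 0.02 ± 0.06 for the bright RPL7 probe and 0.32 ± 0.17 for a dim one. RPS4Y1, at the top of the scale in all 16 channels, gave -0.02 ± 0.05. Which copy this bright probe reads in these cells from ovaries was not tested. RPL3L, near background, gave -0.07 ± 0.05. The main genes RPL3, RPL10, RPL22 and RPS4X and the copies RPL10L and RPL39L were not analysed here. Ribosomal protein genes have many near-identical pseudogene copies, and the files do not say which copies a probe can bind, so values of single copies are uncertain.

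Probes of one gene gave ratios close to each other in most of the 28 genes with more than 1 probe. The difference between the highest and lowest probe was 0.00174 for RPL14, 0.01 for RPS14 and 0.03 for RPL30, and the widest was 0.35 for the 6 probes of RPL7L1. RPL13 gave 0.08 at the top of the scale and 0.34 and 0.24 on its dimmer probes. No gene had tested probes of opposite sign that both exceeded 0.3 in size, but few member probes exceeded it, so this check says little.

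**Figure D3:**
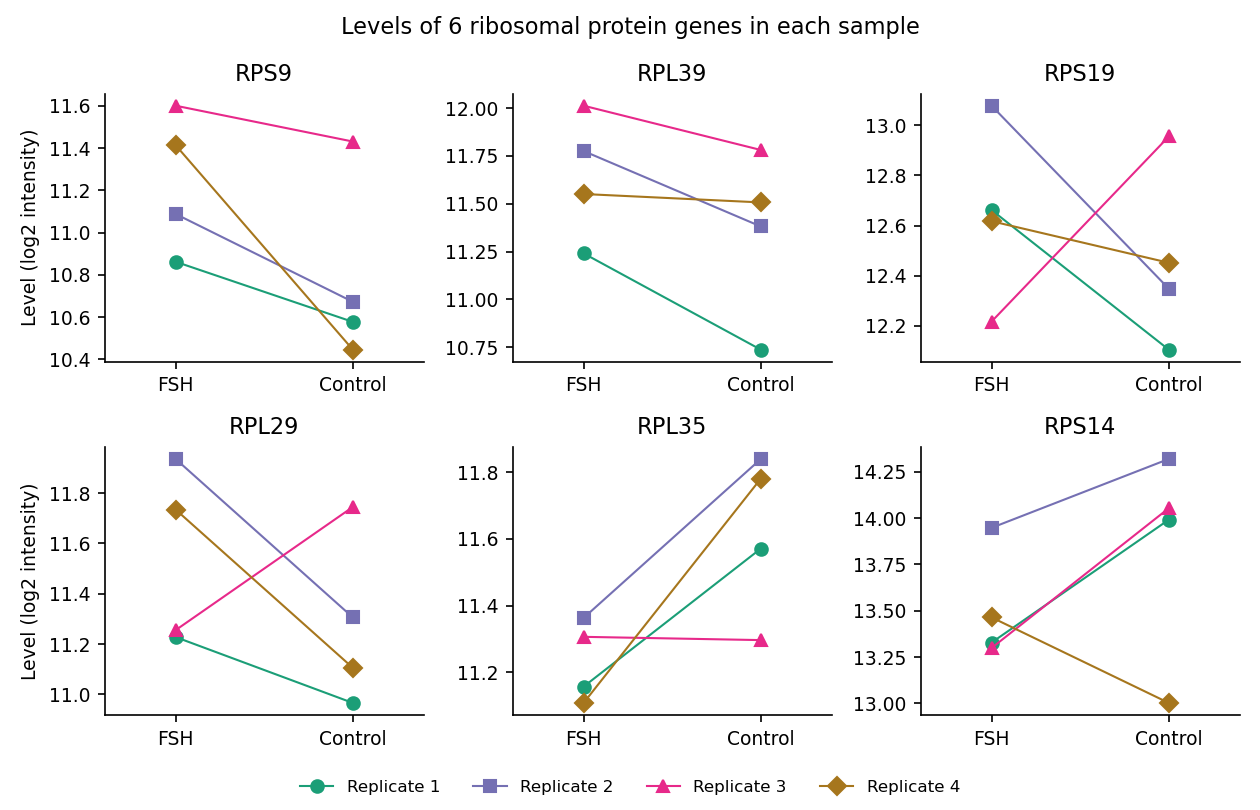
Levels (log2 intensity, y axis) of 6 genes in the FSH sample (left) and the control sample (right) of each replicate, joined by a line, each panel with its own scale. In RPS19 and RPL29 the line of replicate 3 runs against the others, and in RPS14 that of replicate 4.

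The subunits did not differ in a common direction. The median log2 ratio of FSH over control was 0.0164 for the 43 large subunit genes, 26 above 0 and 17 below, and 0.00224 for the 25 small subunit genes, 13 above and 12 below. Large minus small was -0.07, 0.01, 0.04 and -0.01 in replicates 1 to 4, with a mean of -0.00753 ± 0.0457 (SD, n = 4). The variation over replicates was larger than the mean, and the difference of the medians over replicate means had the other sign, 0.0141. On the brightest probe below the top of the scale, large minus small was -0.00, 0.03, -0.02 and -0.23.

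Members of middle brightness moved together from replicate to replicate, in FSH and control samples alike. This was seen after the values were known, so it is described and not tested. It uses the 48 member probes below the top of the scale with a mean log2 intensity from 10 to 14, which stand for 33 genes, beside 5366 tested probes of the same range. The members' median deviation from each probe's own mean was -0.16, 0.24, 0.04 and 0.00 in FSH replicates 1 to 4 and -0.17, 0.18, 0.13 and -0.10 in control replicates 1 to 4. Replicate 1 was low and replicate 2 high in both conditions. Over the 5366 probes the medians stayed between -0.08 and 0.06.

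Replicate 2 lay above replicate 1 in both FSH and control samples for 44 of the 48 member probes (91.7%), against 38.7% of the 5366 probes. It did so for 29 of 32 large subunit and 15 of 16 small subunit probes, and for 31 of 33 genes by their brightest probe. The exceptions were the second RPS9 probe and RPL38, lower in replicate 2 in both conditions, and a probe of RPL7L1 and one of RPL22L1, lower in FSH samples only. Other lists of the same brightness gave lower shares: 27 of 56 mitochondrial ribosomal protein probes (48.2%), 10 of 22 for ribosome biogenesis and 9 of 15 for translation factors and other TOP genes. The count was 44 on the arrays with FSH in Cy5 and 44 on those with FSH in Cy3. RPL14 illustrates it, with levels of 13.21, 13.69, 13.34 and 13.33 in FSH samples and 13.19, 13.79, 13.38 and 13.14 in control samples. Its FSH and control levels of each number lay within 0.19 of each other, and replicate 2 was the highest in both conditions. The FSH and control samples of a number shared their arrays, so the culture and the array cannot be told apart.

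The median correlation between pairs of these 48 probes over the 8 samples was 0.433, against 0.0352 between pairs of the 5366 probes. It was 0.327 for the 44 members at the top of the scale. These are descriptions over 8 samples that share 4 array pairs, and probes of one gene are among the pairs. Among controls, replicate 1 was the lowest for 22 of the 48 probes, replicate 4 for 18, replicate 3 for 6 and replicate 2 for 2. Among the 5366 probes the lowest control was replicate 1 for 1096, replicate 4 for 1490, replicate 3 for 1551 and replicate 2 for 1229.

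**Figure D4:**
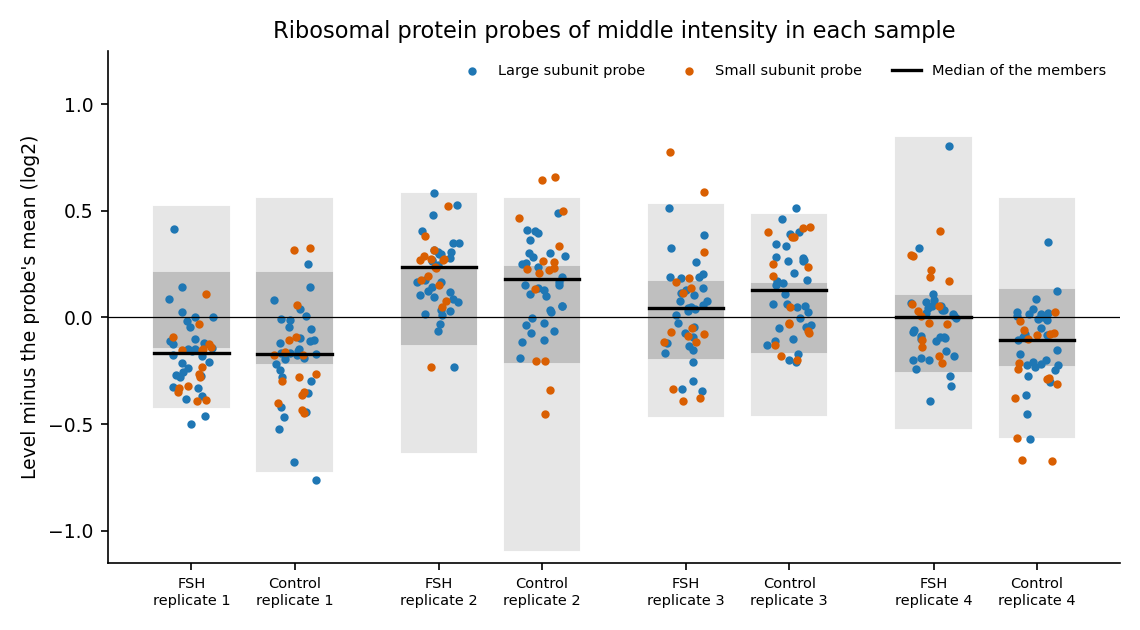
Each point is 1 of 48 member probes of middle intensity, as its level minus its own mean over the 8 samples (log2, y axis), in the FSH and control sample of each replicate. Black lines are the members' medians and grey boxes the 25th to 75th (dark) and 5th to 95th (light) percentiles of 5366 tested probes. The medians are low in both samples of replicate 1 and high in both of replicate 2.

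The sign of the members' median ratio differed between the dye orientations. Their median log2 ratio of FSH over control was 0.09, 0.11, 0.02 and 0.15 in replicates 1 to 4 on the arrays with FSH in Cy5, and -0.09, -0.07, -0.14 and -0.01 on those with FSH in Cy3. Every replicate gave a positive median in one orientation and a negative one in the other. For all tested genes these medians lay between -0.02 and 0.01, but loess within arrays holds the ratios of all gene probes near 0. In the dye fit of limma, 52 member probes were brighter in Cy5 (43%, against 32.8% of all probes) and 26 in Cy3 (21.5%, against 26.2%) at an adjusted p under 0.05. With arrays centred on their median in place of loess, the split was 93 to 9, beside 11069 to 10094 over all tested probes. At the top of the scale 32 of 44 members were brighter in Cy5 and 0 in Cy3, against 73.9% and 0% of the 207 probes there. Below the top the members split 20 to 26, against 32.6% and 26.4% of all probes below it. Averaging both orientations cancels a dye effect in the ratios given above, and whatever else the 4 arrays of an orientation share cannot be told apart from the dye.

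**Figure D5:**
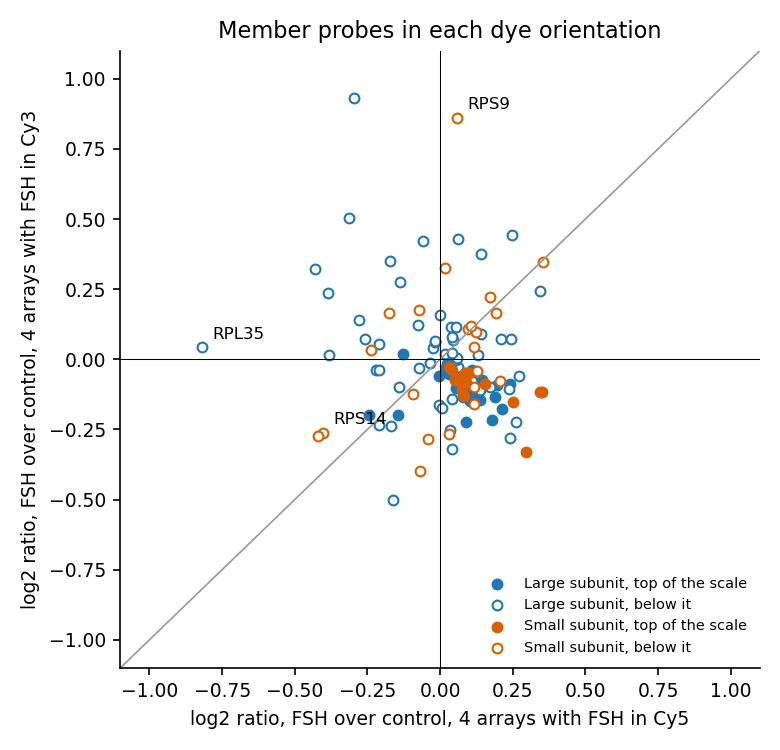
Each member probe is placed by its log2 ratio of FSH over control on the 4 arrays with FSH in Cy5 (x axis) and on the 4 with FSH in Cy3 (y axis), with the line of equal values. Of the 44 filled points at the top of the scale, 40 lie right of 0 on the x axis and below 0 on the y axis.

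Genes that work with the ribosome gave medians near 0 too, and none of them passed the adjusted test. From each list of these genes the 3 of lowest unadjusted p are named, so their signs and p-values are descriptions only. Among 25 measured translation factors and other TOP genes the median log2 ratio of FSH over control was -0.04, with 9 above 0 and 16 below, beside -0.00463 for all genes. At an unadjusted p under 0.05, 1 was higher and 6 were lower, against 7.92% and 8.08% of all tested genes. EIF4A2, an RNA helicase of initiation, gave -0.33, -0.48, -0.23 and -0.39, a mean of -0.36 ± 0.06. LARP1, the TOP-binding repressor, gave -0.35, -0.70, -0.30 and -0.39, a mean of -0.44 ± 0.08. Both had the same sign in all 4 replicates, with adjusted p of 0.212 and 0.229 in limma and 0.0294 and 0.0221 with the replicate block, which called 2.74% of all genes higher and 2.48% lower. EIF3L, a subunit of an initiation factor, gave -0.26 ± 0.05. FAU, whose product carries the small subunit protein RPS30, gave 0.53 ± 0.11, with an adjusted p of 0.266 and of 0.0258 with the replicate block, and was named after its values were seen. EEF1A1, EEF1D, PABPC1 and TPT1 of this list were at the top of the scale.

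Of 47 measured ribosome biogenesis genes, 23 were above 0 and 24 below, with a median of -0.00191, and the unadjusted p was under 0.05 for 3 higher and 1 lower, against the 7.92% and 8.08% of all genes. NOP56, a core protein of the box C/D particles that methylate ribosomal RNA, gave -0.68, -0.87, -0.37 and -0.11, a mean of -0.51 ± 0.14. FBL, the methyltransferase of the same particles, gave 0.13, 0.37, 0.17 and 0.60, a mean of 0.32 ± 0.09. Both had one sign in all replicates and opposite directions, with adjusted p of 0.304 and 0.319 in limma and 0.0444 and 0.0919 with the replicate block. TSR1, an assembly factor of the small subunit, gave 0.17 ± 0.04.

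Of 26 measured genes of signalling to the ribosome, 12 were above 0 and 14 below, with a median of -0.04, and the unadjusted p was under 0.05 for 2 higher and 4 lower, against the same shares. LARP1, which is counted in this list and among the translation factors and other TOP genes, had the lowest unadjusted p, with -0.44 ± 0.08. EIF4E, the cap-binding protein, gave 0.05, 0.47, 0.42 and 0.54, a mean of 0.37 ± 0.09. RHEB, the activator of mTOR, gave 0.40, 0.71, 0.00 and 0.42, a mean of 0.38 ± 0.12. The adjusted p of EIF4E and RHEB were 0.296 and 0.339 in limma and 0.0416 and 0.0633 with the replicate block.

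The mitochondrial ribosome, which translates the mitochondrial genome, had 77 measured genes, 37 above 0 and 40 below, with a median of -0.04. At an unadjusted p under 0.05, 3 were higher and 11 lower, against 7.92% and 8.08% of all genes. MRPL55 gave 0.29 ± 0.06, MRPL3 -0.28 ± 0.06 and MRPS18B -0.32 ± 0.07, with adjusted p of 0.262, 0.258 and 0.277 in limma. The replicate block called MRPL55 higher and MRPS18B, MRPL10 and MRPL43 lower, 1 and 3 of 77 against 2.74% and 2.48% of all genes.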

How the data were processed

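The scanner tables deposited by the authors hold, per the file headers, the raw mean and median intensity of each spot and its background in Cy5 and Cy3. Per the labels' protocols, RNA went through 2 rounds of T7 amplification and non-enzymatic dye coupling. The ratio table of the whole series was not used.

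Mean intensities were corrected by normexp (offset 50) and log ratios normalised by loess within arrays (limma 3.58.1, R 4.3.3). Control spots and spots the scanner marked as ignored had no weight. All ratios were expressed as FSH over control, and the dye-swap pair of a replicate was averaged, giving 4 values. Probes were tested that exceeded background (95th percentile over 153 negative control spots) in either channel of 4 or more arrays. The mean was tested against 0 (lmFit and eBayes, two-sided, Benjamini-Hochberg over 36531 probes, threshold 0.05), and SE are limma's. The dye fit used Cy5 over Cy3. Levels are log2 intensities after Aquantile scaling. A gene stands by its brightest tested probe. The scripts were tested on simulated data. The number of arrays limits the precision.

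Symbols are those of the platform annotation, all 68 current in RefSeq for cattle. No genome coordinates were used. Same-numbered arrays, paired by the labels and the series design, correlated across probes at 0.357 to 0.610. For arrays of other numbers the range was -0.399 to 0.285 in opposite orientation. In the same orientation it was 0.146 to 0.728, which reached above the same-numbered pairs. Named were the 6 highest and 6 lowest members, the 4 lowest unadjusted p in each direction, the 5 widest over controls, a fixed set (the stalk, RPSA, RPS6, RPL4, RPL5, RPL11 and paralogues), and 3 genes of lowest p per companion list. Other genes were named after their values were seen. Members and lists were chosen with earlier results of these data known. Alternatives changed the background, offset, pixel summary, normalisation, filter, probe rule, block, orientation and replicates. Tables were made with Python 3.11.15 (pandas 2.3.3, numpy 2.4.6) and figures with matplotlib 3.10.9.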

Additional observations from a re-analysis of the deposited data

Results flagged for a closer look

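In 126 groups of 4 values, levels and ratios of the genes named by rule, 4 held a sample far from the other three, and chance alone gives about 1 in 20. The control level of RPL6 was 14.65 in replicate 3, against 14.83 to 14.85 in the other controls. The log2 ratio of FSH over control of RPS6 was -0.15 in replicate 3 and 0.02 to 0.03 in the others, with the probe at the top of the scale. The log2 ratio of RPL11 was 0.45 in replicate 4, against -0.19 to -0.11 in the others. The control level of NR4A1, no ribosomal protein, was 14.89 in replicate 3, against 10.89 to 11.25 in the other controls.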

How the results depend on the processing

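Calls for FSH depended on how the arrays were combined. Where the mean of each dye-swap pair called 0 probes, the replicate block with a dye term called 1277, and 2627 without replicate 3, the arrays with FSH in Cy5 alone 1983 and those with FSH in Cy3 alone 471. Member probes called were 0, 4, 2 and 0 in these settings, the 2 being RPL35 and a probe of RPS9. The block assumes 1 correlation within replicates for all probes (0.722). On the pair means, leaving out each replicate gave 0 calls each time. The members' median log2 ratio was 0.0683 with median centring, 0.0816 with FSH in Cy5 alone and -0.0876 with FSH in Cy3 alone, and -0.02 to 0.03 leaving out each replicate. Large minus small medians lay between -0.01 and 0.03 in all settings run. Dye calls were 5708 over all probes and 32 among members with the median pixel, against 21567 and 78 with the mean, and 46 among members below the top of the scale. The 44 probes with replicate 2 above replicate 1 were 41 with the median pixel and 43 with median centring. Among 41 named genes, the ratio changed sign in 9 with FSH in Cy5 alone and in 7 with FSH in Cy3 alone, among them RPL38 in the first and RPL35 in the second. RPS19 was -0.01 without replicate 2. RPS14 was -0.60 without replicate 4 and -0.19 without replicate 3. Leaving out replicate 3 moved RPL29 to 0.51, RPS10 to 0.34 and RPS19 to 0.48. The comparison of replicates 1 and 2 and the splits at the top of the scale were chosen after seeing the data, and replicate 3 was left out of the block because earlier results of these data showed it apart. Of the 44 member probes at the top of the scale, how far the scanner's range limits the ratios was not tested, and RPL3L was near background.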
